A study of Mus musculus with 12 samples.

Results

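The chemokines and the chemokine receptors were described in pancreatic islets of 4 mouse genotypes. Members were chosen by symbol: every gene with a named probe whose symbol begins with Ccl, Cxcl, Ccr or Cxcr and a number, and in addition Cx3cl1, Cx3cr1 and Xcl1. This gave 52 genes of 17305 named genes on the array, of which 34 were ligands and 18 were receptors. Each gene is represented by the brightest of its probes, since 13 members had more than 1 probe.

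RNA came from hand-picked islets of chow-fed mice on a mixed C57BL/6 and Sv129 background, which the labels give as 4 weeks old and the study's text as slightly older females. WT mice carried neither change, PPARγ2KO mice lacked the γ2 isoform of the nuclear receptor PPARγ, ob/ob mice (OB in the labels) lacked leptin and are obese, and POKO mice (DKO in the labels) lacked both. No promoter or Cre limits the changes to islet cells in the sources used here. Each genotype had 3 arrays in 1 colour, each made from a pool of mice, and islets were cultured overnight before extraction, so a p value measures the spread between pools. Each of the 3 slides held 1 array of every genotype in a fixed place, so place on the slide and genotype cannot be told apart.

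Chemokines are small secreted proteins that guide the movement of leukocytes. They act through receptors that couple to inhibitory G proteins, and most receptors bind several ligands. CXCR3 on activated T cells binds the interferon-induced ligands CXCL9 and CXCL10. CCR7 with CCL19 and CCL21, and CXCR5 with CXCL13, bring T and B cells into lymph nodes and follicles. CCR2 with CCL2 and CCL7 draws monocytes, and CXCR2 with CXCL1, CXCL2 and CXCL5 draws neutrophils. Islet endocrine cells, macrophages and stromal cells are known to release several of these ligands, above all after exposure to cytokines.

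The sequences just upstream of 5 ligand genes are shown: Cxcl10, Ccl19, Cxcl1 and Cxcl2 because they hold a motif match, and Cxcl9 because it is the neighbour of Cxcl10 and holds none. RefSeq windows (build GRCm38.p6) were at hand for 39 of the 52 members, in 43 windows. Capitals mark matches, on either strand, to an interferon-stimulated response element (ISRE, searched as TTTC and TTTC with any 2 bases between them) or to an NF-κB site (GGGA and TTCC with any 2 bases between them). Each line gives the 250 bases before the start of the gene, read in the direction of transcription.
Cxcl10 (chr5:92348890-92349139, minus strand): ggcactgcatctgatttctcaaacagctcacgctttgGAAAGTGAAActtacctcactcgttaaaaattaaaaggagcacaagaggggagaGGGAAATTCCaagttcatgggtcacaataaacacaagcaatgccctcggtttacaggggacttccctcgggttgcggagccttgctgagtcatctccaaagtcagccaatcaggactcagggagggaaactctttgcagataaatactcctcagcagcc
Ccl19 (chr4:42756366-42756615, minus strand): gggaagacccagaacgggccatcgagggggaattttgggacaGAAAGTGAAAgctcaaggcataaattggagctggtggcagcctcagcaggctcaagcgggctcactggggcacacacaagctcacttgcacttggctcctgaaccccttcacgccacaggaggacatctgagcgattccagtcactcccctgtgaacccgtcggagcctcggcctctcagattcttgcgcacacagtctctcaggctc
Cxcl1 (chr5:90890995-90891244, plus strand): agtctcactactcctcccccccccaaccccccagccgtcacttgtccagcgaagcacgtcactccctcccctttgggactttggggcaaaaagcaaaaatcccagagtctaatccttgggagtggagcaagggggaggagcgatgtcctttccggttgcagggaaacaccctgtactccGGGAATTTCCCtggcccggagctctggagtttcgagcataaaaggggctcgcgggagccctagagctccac
Cxcl2 (chr5:90903649-90903898, plus strand): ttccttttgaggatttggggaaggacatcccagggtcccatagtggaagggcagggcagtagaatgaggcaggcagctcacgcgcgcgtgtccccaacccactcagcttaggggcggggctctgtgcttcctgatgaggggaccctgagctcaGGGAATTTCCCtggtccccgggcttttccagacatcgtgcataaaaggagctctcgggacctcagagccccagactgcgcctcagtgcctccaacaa
Cxcl9 (chr5:92328080-92328329, minus strand): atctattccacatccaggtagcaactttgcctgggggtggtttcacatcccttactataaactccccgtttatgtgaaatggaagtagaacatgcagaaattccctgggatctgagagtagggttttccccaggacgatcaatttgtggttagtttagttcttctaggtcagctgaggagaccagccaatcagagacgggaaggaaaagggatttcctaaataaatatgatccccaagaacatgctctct
Cxcl10 held both, with the ISRE match 213 bases and the NF-κB match 159 bases before the gene's start. In Ccl19 the ISRE match began 208 bases before the start. Forward NF-κB matches began 71 bases before the start of Cxcl1 and 97 bases before that of Cxcl2, each overlapping a match on the other strand. Among member windows the NF-κB letters were found in 6 (Ccl1, Ccr3, Cxcl1, Cxcl10, Cxcl2 and Cxcl3), or 14% of windows, against 1.21% of all 32851 windows. The ISRE letters were in 3 member windows (Ccl19, Cxcl10 and Cxcl14), or 6.98%, against 2.98%. The PPAR response element, searched as AGGTCA and AGGTCA with any 1 base between them, was found in 0 member windows and in 0.0335% of all windows. Of the 9 members called in ob/ob vs. WT below, 6 had a window and only that of Cxcl10 held a match, and the window of Cxcl12 held none. These matches are a description of the letters in the windows.

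Before the members are described, the arrays were checked. Median processed signals were 20.9 to 40.6, and 54.3% to 64.9% of spots were well above background. The Pparg probe (NM_011146) had a log2 signal of 8.85 to 8.98 in WT and 8.54 to 9.77 in ob/ob, against 6.60 to 7.44 in PPARγ2KO and 6.41 to 7.14 in POKO. Both genotypes without PPARγ2 were thus below the other two on every array. Lep, the gene of leptin, was not above background on any array and does not check the ob/ob label. Islet hormone genes and exocrine genes were both well above background on the arrays, with a summed signal of beta cell markers of 633813 to 942147 and of acinar markers of 1836500 to 2244200. PPARγ2KO replicate 2 stood apart, with 36 members well above background against 27 and 31 on the other 2 arrays of its genotype and a summed signal of 10 B cell markers of 3140 against 169 and 210.

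Of the 52 members, 23 were well above background on all 12 arrays, 21 on some of them and 8 on none (Ccl1, Ccr1, Ccr2, Ccr8, Cx3cr1, Cxcl15, Cxcr1 and Xcl1). On every array of a genotype, 24 members were well above background in WT, 25 in PPARγ2KO, 35 in ob/ob and 36 in POKO. The number on a single array was 27 to 29 in WT and 36 to 41 in ob/ob and POKO together, which did not overlap. Receptors took part in this: 5 or 6 of the 18 were well above background on a WT array and 10 to 12 on an ob/ob or POKO array. The share of all spots well above background did not overlap either, at 54.3% to 57.5% in WT and 60.4% to 64.9% in ob/ob and POKO. The lowest log2 signal well above background was 3.55 to 4.04 in WT and 2.58 to 3.19 in ob/ob and POKO. A count above background can thus differ without a difference in signal. Signal depends on the probe, so levels are compared between arrays and not between genes. In islet RNA, fewer cells of a type and less RNA per cell cannot be told apart.

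**Figure D1:**
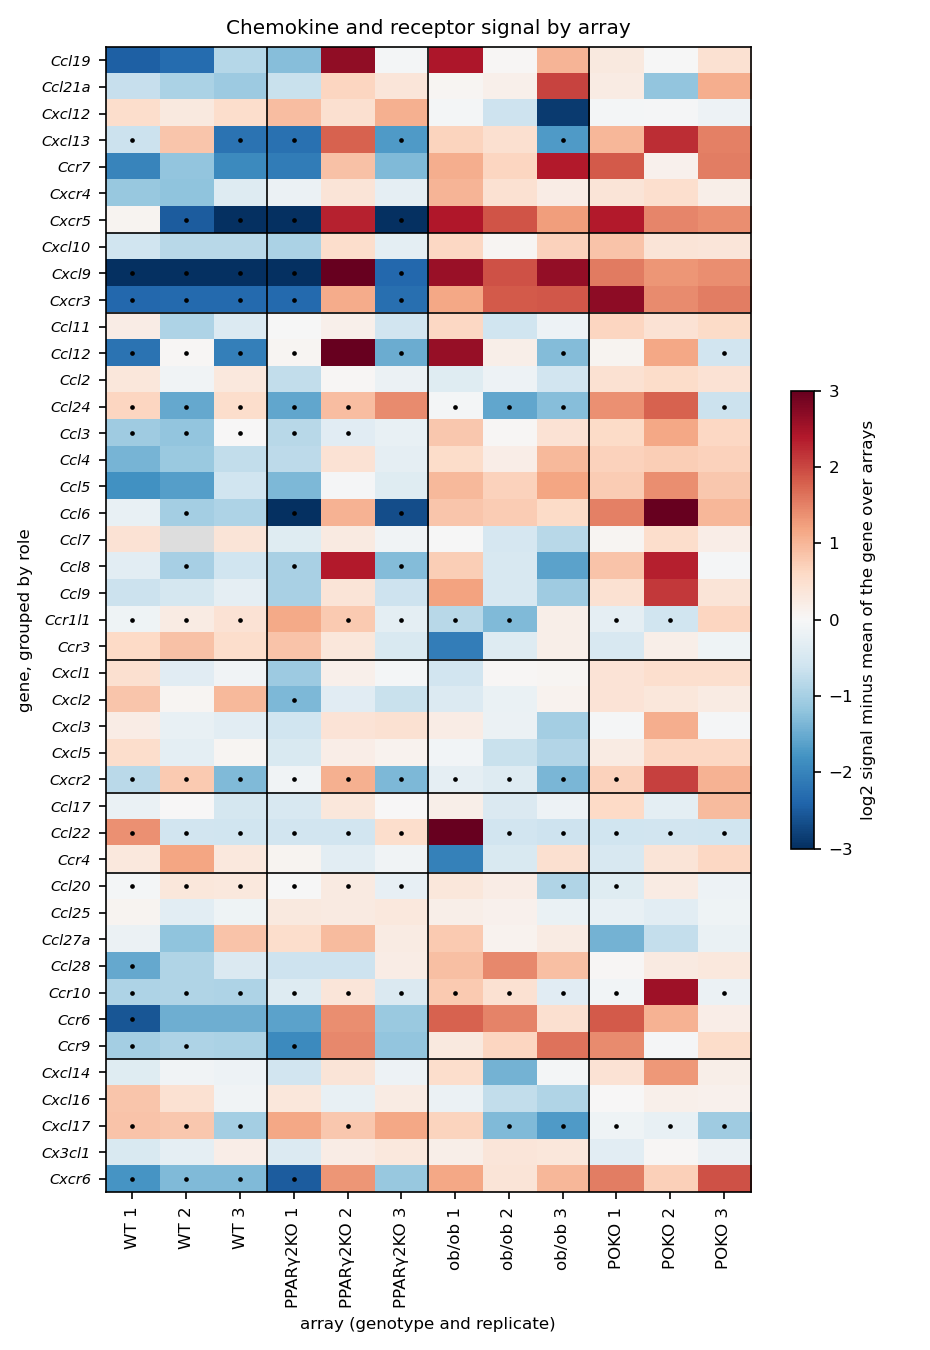
Log2 signal of 43 members that were well above background on at least 1 array, for each of the 12 arrays, as the difference from the mean of the gene over all arrays. Rows are grouped by role with black lines between groups, black dots mark values not well above background, and grey marks 1 value left out as an outlier spot. Many lymphocyte-side rows are low on the WT arrays and high on the ob/ob and POKO arrays and on PPARγ2KO replicate 2.

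The first comparison, ob/ob vs. WT, asks how islets of the obese, leptin-deficient mouse differ from lean islets. Of the 52 members 9 were higher and 0 were lower by both criteria, an adjusted p of at most 0.05 and a change of at least 1 on the log2 scale (limma, Benjamini-Hochberg over all 41174 probes). The 9 were the ligands Ccl28, Ccl5, Ccl4, Cxcl9 and Cxcl10 and the receptors Cxcr4, Cxcr3, Ccr6 and Ccr7, with log2 fold changes of 1.22 to 5.60. They make up 17.3% of the members, beside 4.51% of all named genes called higher and 2.17% called lower. In all 9 the 3 ob/ob arrays lay above the 3 WT arrays, and ob/ob was higher on 3 of 3 slides. The median log2 fold change was 0.18 over the members and -0.06 over all named genes. Groups did not overlap for 18 members that were higher (34.6%, against 13.9% of named genes) and for 10 that were lower (19.2%, against 25.3%). At an unadjusted p of 0.05, 16 members were higher (16.1% of named genes) and 9 were lower (20.9%).

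These calls rest on few arrays. With the slide as a block, 6 of the 9 were kept, and Cxcl9 (adjusted p = 0.0543), Ccr7 (adjusted p = 0.0608) and Cxcl10 (adjusted p = 0.0771) no longer passed. Leaving out WT replicate 2 or ob/ob replicate 2 ended all 9 calls, leaving out WT replicate 1 or ob/ob replicate 3 left Ccl28 alone, and leaving out any 1 of the 3 POKO arrays, which only share the estimate of the spread, left 5. Without PPARγ2KO replicate 2, the library that stood apart, the count was 14, with all 9 kept. Without ob/ob replicate 1, 5 of the 9 were kept and Ccl7, Cxcl12 and Cxcl16 were called lower, and without WT replicate 3, 6 were kept and Cxcl16 was called lower. For fits that leave out an array, the share of named genes called was not computed.

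All 3 members of the CXCR3 axis were called. Cxcl9 (NM_008599), an interferon-induced ligand of CXCR3, had log2 signals of 1.32, 1.37 and 1.33 in WT, 1.33, 8.42 and 2.22 in PPARγ2KO, 7.15, 6.47 and 7.21 in ob/ob and 6.12, 5.90 and 5.97 in POKO. None of the WT arrays and every ob/ob and POKO array measured it above background. The ob/ob signal was at least 8.77-fold higher than WT, a bound set by the lowest signal measured above background (log2 fold change 5.60, standard error 1.47, adjusted p = 0.0431). Its receptor Cxcr3 (NM_009910), found on activated T cells, had 1.33, 1.34 and 1.33 in WT, 1.35, 4.78 and 1.42 in PPARγ2KO, 4.83, 5.52 and 5.53 in ob/ob and 6.35, 5.10 and 5.22 in POKO. Again no WT array and all ob/ob arrays were above background, and ob/ob was at least 2.79-fold higher (log2 fold change 3.96, standard error 0.80, adjusted p = 0.0270). Both bounds hold for the main processing only. Over the alternatives the log2 fold change was as low as 0.72 for Cxcl9 and 0.26 for Cxcr3. Cxcl10 (NM_021274), the other CXCR3 ligand with a named probe, was measured on every array, at 8.62, 8.39 and 8.40 in WT, 8.28, 9.76 and 8.94 in PPARγ2KO, 9.84, 9.28 and 9.93 in ob/ob and 10.08, 9.62 and 9.58 in POKO. The WT arrays spanned a narrow range below all ob/ob arrays, and the difference was smaller than for Cxcl9 (log2 fold change 1.22, standard error 0.34, adjusted p = 0.0490). On all 3 genes PPARγ2KO replicate 2 was near the ob/ob arrays and replicate 1 near WT.

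Inflammatory CC ligands were the second group. Ccl5 (NM_013653), made by T cells and other leukocytes, had log2 signals of 9.91, 10.07 and 11.13 in WT, 10.39, 11.70 and 11.36 in PPARγ2KO, 12.71, 12.42 and 12.92 in ob/ob and 12.50, 13.12 and 12.54 in POKO. All 6 ob/ob and POKO arrays were above all WT and PPARγ2KO arrays (log2 fold change 2.31, standard error 0.40, adjusted p = 0.0200). For Ccl4 (NM_013652), a ligand made by activated lymphocytes and macrophages, the values were 4.42, 4.71 and 5.09 in WT, 5.04, 6.25 and 5.54 in PPARγ2KO, 6.37, 6.01 and 6.78 in ob/ob and 6.49, 6.55 and 6.5 in POKO. All ob/ob and POKO arrays were above all WT arrays, and PPARγ2KO overlapped both WT and ob/ob (log2 fold change 1.65, standard error 0.31, adjusted p = 0.0233). Ccl3, which acts on CCR1 among other receptors, gave 2.85, 2.73 and 3.93 in WT, 3.09, 3.58 and 3.69 in PPARγ2KO, 4.71, 3.94 and 4.36 in ob/ob and 4.48, 5.08 and 4.55 in POKO. No WT array was above background for Ccl3, and the difference did not pass (log2 fold change 1.17, standard error 0.34, adjusted p = 0.0567, at least 1.32-fold). Of the 16 members in the group of inflammatory CC ligands and their receptors, 2 were called higher and 0 lower, with a median log2 fold change of 0.26. Ccr1 and Ccr2, the receptors of monocytes, were not above background on any array.

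**Figure D2:**
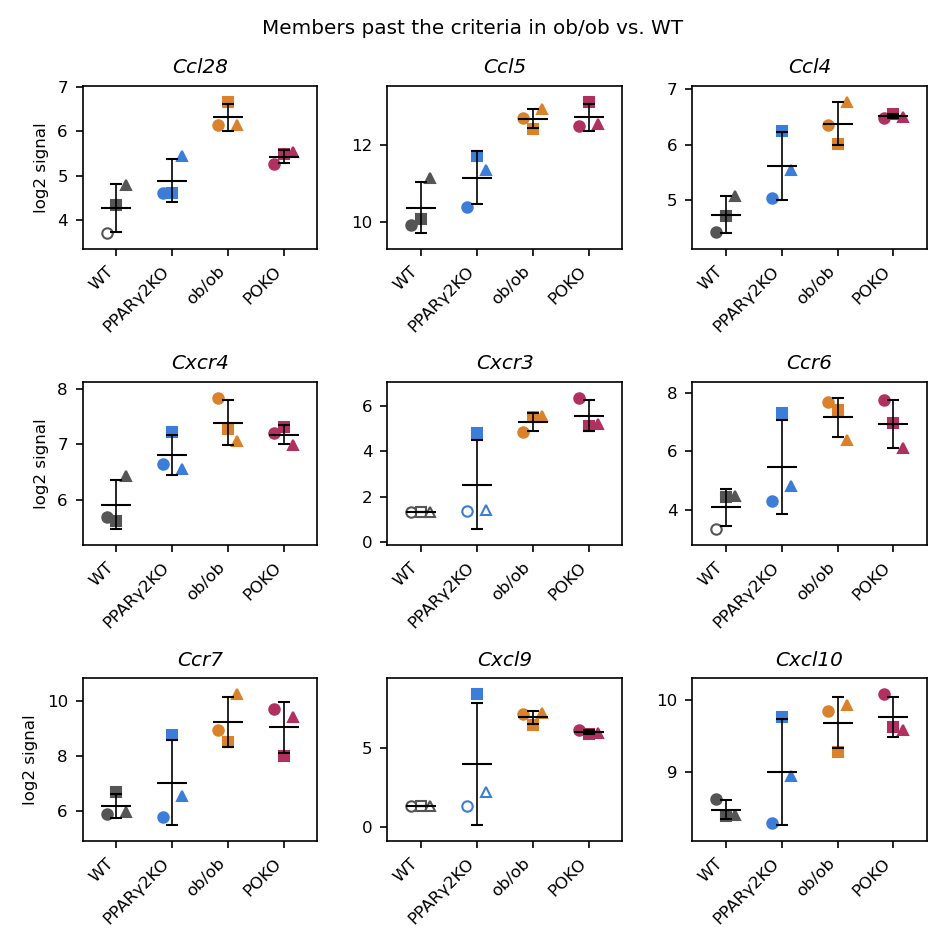
Log2 signal, by genotype, of the 9 members called in ob/ob vs. WT. Circles, squares and triangles are replicates 1, 2 and 3 (slides 1, 2 and 3), open symbols are not well above background, and bars are the mean and SD of 3 arrays. In each panel the 3 ob/ob arrays lie above the 3 WT arrays, and the square of PPARγ2KO lies above the other arrays of its genotype in all panels but that of Ccl28.

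The genes that place lymphocytes in lymphoid tissue followed a like order of genotypes. Ccr7 (NM_007719), carried by naive T cells, B cells and mature dendritic cells, had 5.90, 6.70 and 5.96 in WT, 5.79, 8.76 and 6.56 in PPARγ2KO, 8.96, 8.52 and 10.26 in ob/ob and 9.71, 8.0 and 9.42 in POKO. ob/ob and POKO were above WT on every array (log2 fold change 3.06, standard error 0.78, adjusted p = 0.0402). Cxcr4 (NM_009911), the receptor of CXCL12, had 5.69, 5.62 and 6.43 in WT, 6.65, 7.22 and 6.56 in PPARγ2KO, 7.84, 7.27 and 7.05 in ob/ob and 7.21, 7.32 and 6.99 in POKO. The highest WT array was replicate 3, still below the lowest ob/ob array (log2 fold change 1.48, standard error 0.28, adjusted p = 0.0241). A second Cxcr4 probe gave 1.44 (adjusted p = 0.0183). Cxcr5, the follicle-homing receptor of B cells, had 5.37, 2.78 and 1.52 in WT, 1.47, 7.59 and 2.21 in PPARγ2KO, 7.68, 7.17 and 6.53 in ob/ob and 7.66, 6.74 and 6.69 in POKO. WT replicate 1 was above background and the other 2 WT arrays were not, and this spread goes with a large error (log2 fold change 3.91, standard error 1.5, adjusted p = 0.112).

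Their ligands were less even. Ccl19, a CCR7 ligand of lymphoid stroma, had 4.54, 4.68 and 6.14 in WT, 5.71, 9.65 and 6.93 in PPARγ2KO, 9.41, 7.02 and 8.01 in ob/ob and 7.28, 6.97 and 7.45 in POKO. All ob/ob arrays were above all WT arrays, but the highest value was that of PPARγ2KO replicate 2 (log2 fold change 3.03, standard error 0.96, adjusted p = 0.0688). A second Ccl19 probe gave 1.85 (adjusted p = 0.121). Ccl21a, the other CCR7 ligand, which has near-identical copies in the mouse that a probe may not tell apart, had 6.15, 5.89 and 5.77 in WT, 6.18, 7.5 and 7.21 in PPARγ2KO, 6.90, 7.01 and 8.87 in ob/ob and 7.11, 5.67 and 7.95 in POKO. The groups did not overlap in ob/ob vs. WT, and the value did not pass (log2 fold change 1.66, standard error 0.67, adjusted p = 0.126). Cxcl13, the ligand of CXCR5, was above background on 1 WT, 1 PPARγ2KO, 2 ob/ob and 3 POKO arrays. Cxcl12, the ligand of CXCR4, went the other way, at 12.15, 11.91 and 12.15 in WT, 12.54, 12.10 and 12.69 in PPARγ2KO, 11.57, 10.99 and 8.75 in ob/ob and 11.55, 11.58 and 11.46 in POKO. Every ob/ob array was below every WT array, and ob/ob replicate 3 was far below the rest (log2 fold change -1.63, standard error 0.58, adjusted p = 0.0935). Without that array the difference was -0.79 (adjusted p = 0.0854).

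Mucosal and skin members gave the call with the smallest adjusted p. Ccl28 (NM_020279), an epithelial chemokine that acts on CCR10 and CCR3, had 3.70, 4.33 and 4.79 in WT, 4.61, 4.61 and 5.45 in PPARγ2KO, 6.14, 6.67 and 6.14 in ob/ob and 5.26, 5.5 and 5.54 in POKO. All ob/ob arrays were above all arrays of every other genotype, and PPARγ2KO replicate 2 did not stand out (log2 fold change 2.04, standard error 0.31, adjusted p = 0.0159). Its receptor Ccr10 was above background on only 1 array, a POKO array. Ccr6 (NM_009835), a receptor of B cells and of some T cells whose ligand is CCL20, had 3.33, 4.44 and 4.45 in WT, 4.29, 7.29 and 4.80 in PPARγ2KO, 7.67, 7.39 and 6.39 in ob/ob and 7.74, 6.94 and 6.10 in POKO. The ob/ob and POKO arrays and PPARγ2KO replicate 2 were above all other arrays (log2 fold change 3.08, standard error 0.77, adjusted p = 0.0385). Ccl20 was above background on 2 ob/ob, 2 POKO and no other arrays, but its signal was not higher in these genotypes. The mean Ccl20 log2 signal was 4.13 in WT, 3.93 in PPARγ2KO, 3.81 in ob/ob and 3.84 in POKO. Ccr9, the gut-homing receptor, had 3.67, 3.76 and 3.75 in WT, 2.79, 6.14 and 3.50 in PPARγ2KO, 4.99, 5.32 and 6.31 in ob/ob and 6.11, 4.66 and 5.24 in POKO. Its WT arrays were within 0.1 of each other and below ob/ob (log2 fold change 1.82, standard error 0.77, adjusted p = 0.145). Of these WT arrays only replicate 3 was above background, so their close values are near background. The CCR9 ligand Ccl25 had 7.35, 6.95 and 7.13 in WT, 7.56, 7.54 and 7.57 in PPARγ2KO, 7.44, 7.39 and 7.07 in ob/ob and 7.05, 6.95 and 7.14 in POKO. In ob/ob vs. WT it changed little (log2 fold change 0.16, standard error 0.13, adjusted p = 0.423), and a second probe gave -0.17. The skin chemokine Ccl27a, also a gene with near-identical copies, had 5.88, 4.83 and 6.90 in WT, 6.57, 7.0 and 6.30 in PPARγ2KO, 6.83, 6.15 and 6.28 in ob/ob and 4.63, 5.32 and 5.86 in POKO. The WT arrays spread over more than the distance between genotypes (log2 fold change 0.55, standard error 0.50, adjusted p = 0.473).

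Among the ligands that can be held at the cell surface, Cxcl16 had 11.28, 10.91 and 10.35 in WT, 10.78, 10.23 and 10.69 in PPARγ2KO, 10.28, 9.72 and 9.56 in ob/ob and 10.47, 10.60 and 10.58 in POKO. All ob/ob arrays were below all WT arrays, and the value passed the p threshold but not the fold threshold (log2 fold change -0.99, standard error 0.26, adjusted p = 0.0427). A second Cxcl16 probe gave -0.52 (adjusted p = 0.0586). Its receptor Cxcr6, found on memory T cells and NK T cells, had 3.09, 3.53 and 3.53 in WT, 2.36, 6.17 and 3.72 in PPARγ2KO, 6.01, 5.24 and 5.84 in ob/ob and 6.38, 5.57 and 6.76 in POKO. No WT array was above background and all ob/ob and POKO arrays were (log2 fold change 2.32, standard error 0.79, adjusted p = 0.0837, at least 3.70-fold). Ligand and receptor thus stood on opposite sides of 0. Cx3cl1, the membrane-bound ligand of CX3CR1, was 9.25 to 9.90 in WT and 9.89 to 10.08 in ob/ob, and Cx3cr1 was not above background on any array.

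Ligands of monocytes and neutrophils were not higher in ob/ob. Ccl2, the main ligand of CCR2, had 12.11, 11.67 and 12.09 in WT, 11.04, 11.80 and 11.61 in PPARγ2KO, 11.43, 11.62 and 11.20 in ob/ob and 12.24, 12.32 and 12.20 in POKO. The 3 ob/ob arrays were below the 3 WT arrays, with no overlap but a small difference (log2 fold change -0.54, standard error 0.20, adjusted p = 0.106). Ccl7, a second CCR2 ligand, had 9.82 and 9.78 in WT with replicate 2 left out as an outlier spot, 9.03, 9.66 and 9.28 in PPARγ2KO, 9.38, 8.89 and 8.57 in ob/ob and 9.46, 9.92 and 9.60 in POKO. As for Ccl2, ob/ob had the lowest mean (log2 fold change -0.85, standard error 0.26, adjusted p = 0.0687, on 2 WT arrays). Its second probe gave -0.76 (adjusted p = 0.0989).

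The CXCR2 ligands had small differences. For Cxcl1 the log2 signals were 9.04, 8.23 and 8.46 in WT, 7.49, 8.73 and 8.52 in PPARγ2KO, 8.0, 8.60 and 8.63 in ob/ob and 8.99, 9.08 and 9.07 in POKO. POKO arrays lay close together, and WT and ob/ob overlapped (log2 fold change -0.16, standard error 0.33, adjusted p = 0.763). For Cxcl2 they were 5.60, 4.84 and 5.74 in WT, 3.41, 4.42 and 4.10 in PPARγ2KO, 4.36, 4.57 and 4.87 in ob/ob and 5.18, 5.12 and 5.03 in POKO. WT was highest, PPARγ2KO lowest and ob/ob between them, and the highest ob/ob array was just above the lowest WT array (log2 fold change -0.79, standard error 0.29, adjusted p = 0.101). For Cxcl5 they were 8.24, 7.43 and 7.79 in WT, 7.27, 7.93 and 7.83 in PPARγ2KO, 7.65, 7.07 and 6.84 in ob/ob and 7.97, 8.34 and 8.35 in POKO. ob/ob held the 2 lowest arrays (log2 fold change -0.63, standard error 0.28, adjusted p = 0.156). Of the 7 members around CXCR2, 0 were called. The 4 of them measured above background in both WT and ob/ob (Cxcl1, Cxcl2, Cxcl3 and Cxcl5) had log2 fold changes of -0.16 to -0.79, while Cxcl15, Cxcr1 and Cxcr2 were at background in both. Against the share of all named genes above 0 (43.9%), a value below 0 was common in this comparison.

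**Figure D3:**
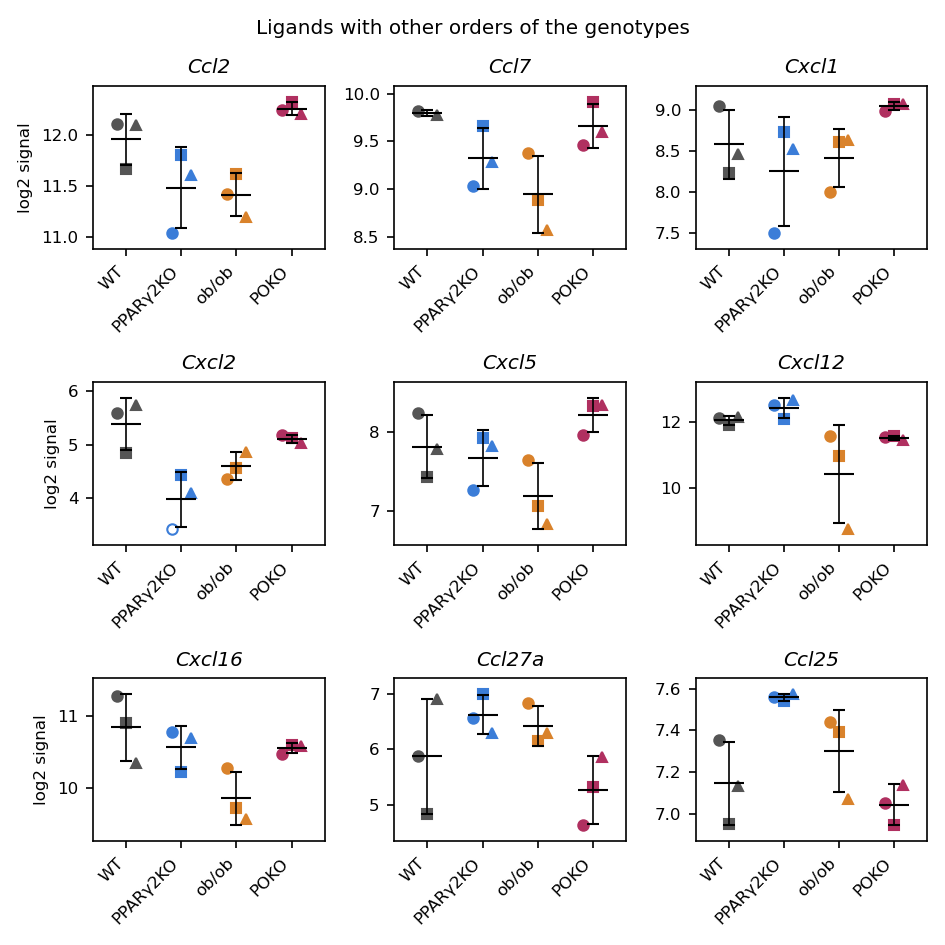
Log2 signal by genotype of 9 ligands that did not pass the criteria in any comparison, with symbols and bars as in the plot of the 9 called members. Ccl2, Ccl7 and Cxcl5 are lower on the ob/ob arrays than on the POKO arrays, Cxcl12 is low on ob/ob replicate 3, and Ccl25 is high on all 3 PPARγ2KO arrays.

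The last members given array by array had their smallest unadjusted p under 0.05 in 1 comparison or another. Ccr3, the receptor of eosinophils, had 6.25, 6.53 and 6.19 in WT, 6.5, 5.99 and 5.19 in PPARγ2KO, 3.58, 5.27 and 5.83 in ob/ob and 5.17, 5.84 and 5.52 in POKO. Its lowest value was that of ob/ob replicate 1 (log2 fold change -1.43, standard error 0.53, adjusted p = 0.104), and a second probe, above background on 1 array, gave -0.19. Ccl6 and Ccl9, ligands of CCR1 made by myeloid cells, peaked on 1 POKO array. Ccl6 had 4.93, 4.12 and 4.21 in WT, 1.19, 6.18 and 2.48 in PPARγ2KO, 5.98, 5.91 and 5.71 in ob/ob and 6.66, 8.19 and 6.15 in POKO. For Ccl9 the values were 5.67, 5.77 and 6.04 in WT, 5.33, 6.69 and 5.68 in PPARγ2KO, 7.52, 5.82 and 5.24 in ob/ob and 6.77, 8.43 and 6.70 in POKO. Ccl11, the eosinophil ligand eotaxin, had 7.25, 6.10 and 6.59 in WT, 7.01, 7.15 and 6.44 in PPARγ2KO, 7.64, 6.41 and 6.86 in ob/ob and 7.67, 7.45 and 7.58 in POKO. The ob/ob vs. WT differences of Ccl6 (1.44), Ccl9 (0.37) and Ccl11 (0.33) did not pass.

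Markers of lymphocytes moved with the lymphocyte-side members. Of 12 T cell markers with a named probe, 9 were called higher in ob/ob vs. WT, and of 10 B cell markers 6 were, with none lower, beside the 4.51% of named genes. Cd3d, a chain of the T cell receptor complex, differed by 6.42 (adjusted p = 0.0309) and Ms4a1, the B cell antigen CD20, by 5.71 (adjusted p = 0.0433). Cd3e (-1.48, adjusted p = 0.118) and Cd4 (-0.11, adjusted p = 0.732) were not higher. The summed signal of the T cell list was 480 to 497 in WT, 340 to 1764 in PPARγ2KO, 1349 to 3663 in ob/ob and 781 to 2646 in POKO. That of the B cell list was 138 to 168, 169 to 3140, 1510 to 4314 and 1351 to 3915 in the same order. In both lists the highest PPARγ2KO array was replicate 2, the array on which Cxcl9, Cxcr3, Cxcr5, Ccr6 and Ccr7 were also highest within the genotype. Between 3 and 5 T cell markers were well above background on a WT array and 11 or 12 on an ob/ob array. The part of lymphocyte number in the members' differences was not tested.

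Other cell types moved less, or otherwise. Glycam1, a product of the high endothelial venules of lymph nodes, was above background on no WT, 2 PPARγ2KO, 3 ob/ob and 3 POKO arrays (ob/ob vs. WT 4.86, adjusted p = 0.0508). Of the 7 markers of lymph node stroma and venules, Glycam1 among them, 0 were called and 4 had a log2 fold change above 0. At an unadjusted p of 0.05, 2 of these markers were higher and 2 lower. Their median log2 fold change was 0.18, with a range of -1.08 to 4.86. Endothelial markers were called higher for 4 of 8 genes, beside 4.51% of named genes, at log2 fold changes of 0.79 to 1.71 over the list. Their summed signal was 2895 to 7559 in WT and 8817 to 11946 in ob/ob. Macrophage markers were called higher for 1 of 11 (C1qa, a complement component, 1.34, adjusted p = 0.0323). At an unadjusted p of 0.05, 7 of the 11 were higher and 0 lower, with a median log2 fold change of 0.87. In POKO vs. WT 7 were higher and 0 lower at that limit (median 1.35), beside 8.71% and 8.45% of named genes. Duct markers were called lower in ob/ob vs. WT for 2 of 7 (Krt19 -1.57 and Cftr -1.33), beside 2.17% of named genes. Of 7 NK cell markers 0 were called. Neutrophil markers summed to 50.1 to 69.1 in WT and 715 to 8129 in POKO, where replicate 2 was highest. On that array Ccl6, Ccl9 and Cxcr2 (4.55) also had their highest values of the 12. Acinar markers differed by -0.30 to 0.05 on the log2 scale in ob/ob vs. WT. Quantile normalization gives the brightest probes nearly the same values on every array. The acinar genes are among these, so their level values do not measure exocrine content. The part of these cell types in the members' differences was not tested.

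**Figure D4:**
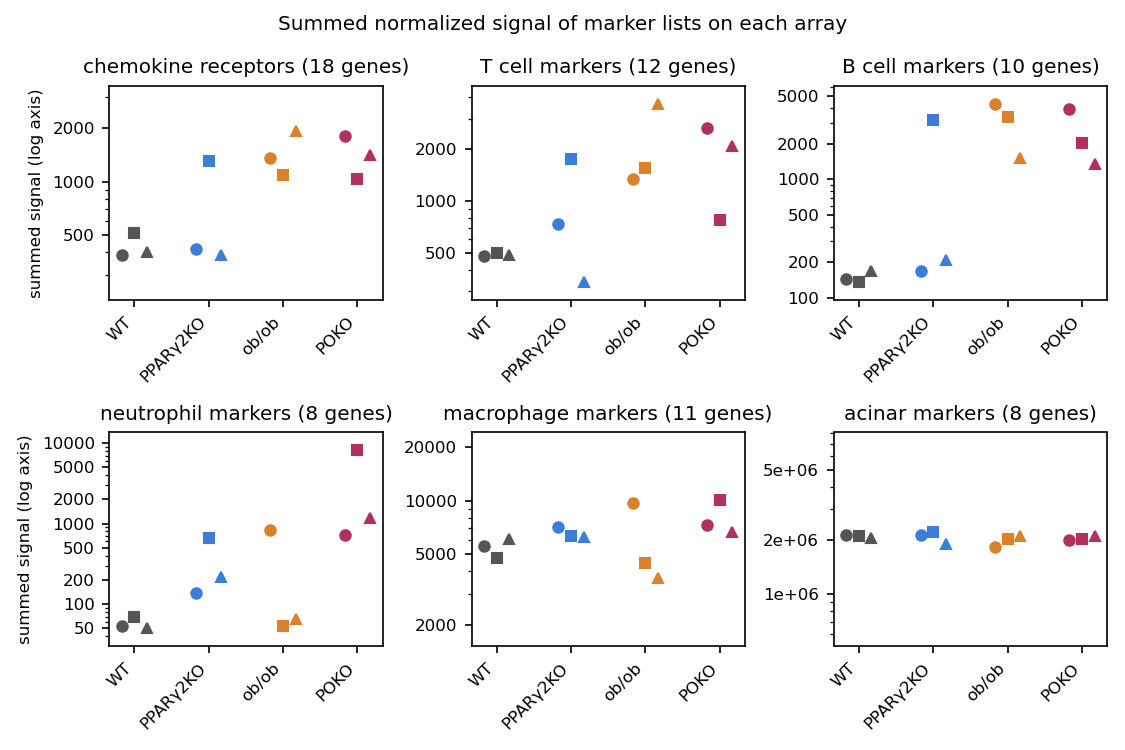
Summed normalized signal of the 18 chemokine receptors and of 5 marker lists on each array, on log axes, by genotype, with circles, squares and triangles for replicates 1, 2 and 3. The receptor sum is 389 to 514 in WT and 1037 to 1937 in ob/ob and POKO together. The B and T cell sums are high on the same arrays and on PPARγ2KO replicate 2. The acinar sum is level, which quantile normalization largely sets for such bright probes.

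POKO vs. WT, the next comparison, asks what differs when obesity and the loss of PPARγ2 come together. It uses the same WT arrays as ob/ob vs. WT, so the 2 sets of values are not independent. Of the 52 members 0 were called, where 0.179% of named genes were called higher and 0.0116% lower. At an unadjusted p of 0.05, 18 members were higher and 1 was lower, beside 8.71% and 8.45% of named genes. Groups did not overlap for 23 members that were higher (44.2%, against 12% of named genes) and for 6 that were lower (11.5%, against 19.8%), and the median log2 fold change was 0.75 against -0.06 (0.11 with normexp background correction). The smallest adjusted p was that of Ccl5 (2.35, adjusted p = 0.0608), followed by Ccl4 (1.78, adjusted p = 0.0638) and Cxcr3 (4.22, adjusted p = 0.0745). Side by side with ob/ob, the POKO difference from WT was 4.66 and 5.60 for Cxcl9, 2.85 and 3.06 for Ccr7, 2.86 and 3.08 for Ccr6, 1.26 and 1.48 for Cxcr4 and 1.30 and 1.22 for Cxcl10. Ccl28 had 1.16 in POKO and 2.04 in ob/ob. Ccl3 had 1.53 and 1.17. Without PPARγ2KO replicate 2 in the fit 8 members were called (among them Ccl4, Ccl5, Ccr6, Cxcl10, Cxcl9, Cxcr3 and Cxcr6), without WT replicate 3 it was 4, and without PPARγ2KO replicate 1 it was 2. The share of named genes called in these fits was not computed.

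**Figure D5:**
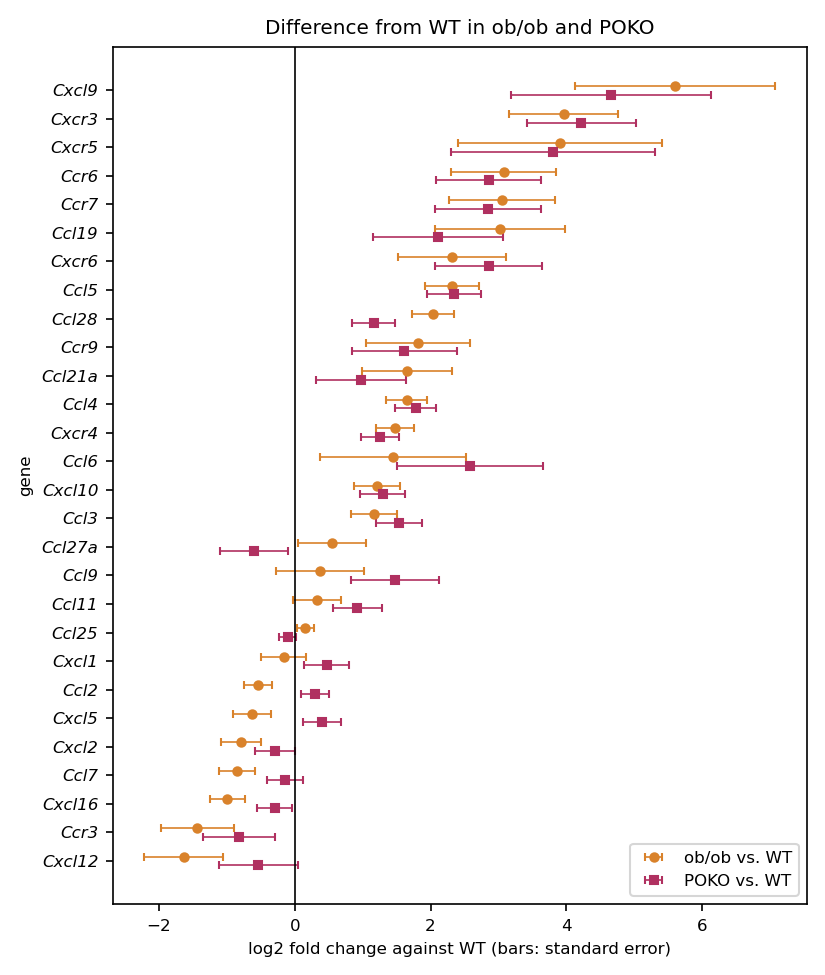
Log2 fold change against WT of the 28 members given array by array, for ob/ob (circles) and POKO (squares), with standard errors of the limma fit as bars. Both comparisons share the WT arrays, the lymphocyte-side members lie right of 0 in both, and Ccl27a, Ccl25, Ccl2, Cxcl5 and Cxcl1 lie on opposite sides of 0 in the 2 comparisons.

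Obese islets with and without PPARγ2 were compared directly in POKO vs. ob/ob. None of the 52 members was called, as was true of 0% of named genes. At an unadjusted p of 0.05, 5 members were higher in POKO and 2 were lower, beside 6.65% and 5.18% of named genes, and every adjusted p was at least 0.531. Groups did not overlap for 10 members that were higher and 4 that were lower (19.2% and 7.69%, against 11.2% and 10.4% of named genes). The 5 were Ccl2 (0.84, 95% interval 0.38 to 1.30), Cxcl5 (1.03, 95% interval 0.41 to 1.66), Ccl7 (0.71, 95% interval 0.18 to 1.25), Cxcl16 (0.70, 95% interval 0.11 to 1.29) and Cxcr2, which was above background on 2 POKO arrays and no ob/ob array. All but Cxcr2 were above background on every array of both groups, and POKO was higher on 3 of 3 slides in all 5. On the same arrays the summed signal of 8 neutrophil markers was 53.4 to 822 in ob/ob and 715 to 8129 in POKO, and its part in these differences was not tested. The 2 that were lower were Ccl28 (-0.88, 95% interval -1.58 to -0.18) and Ccl27a (-1.15, 95% interval -2.27 to -0.03). Of the other members called in ob/ob vs. WT, Cxcl9 (-0.95, 95% interval -4.27 to 2.37), Cxcr3 (0.26, 95% interval -1.55 to 2.07), Ccr7 (-0.21, 95% interval -1.97 to 1.55) and Ccr6 (-0.22, 95% interval -1.96 to 1.52) had intervals that include 0 and also differences of more than 1 in both directions. The intervals of Ccl5 (0.04, 95% interval -0.86 to 0.93), Ccl4 (0.13, 95% interval -0.56 to 0.82), Cxcl10 (0.08, 95% interval -0.68 to 0.84) and Cxcr4 (-0.22, 95% interval -0.84 to 0.41) include 0 and stay within a difference of 1.

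In lean islets, PPARγ2KO vs. WT gave 0 called members and 0% called named genes. At an unadjusted p of 0.05, 4 members were higher and 2 were lower (4.55% and 4.28% of named genes), and groups did not overlap for 5 members in each direction (9.62%, against 4.87% and 6.48%). Cxcl2, a neutrophil ligand, was lower on 3 of 3 slides without overlap (-1.42, adjusted p = 0.290). Ccl25 was higher on 3 of 3 slides without overlap (0.41, adjusted p = 0.457), as was Cxcr4 (0.90, adjusted p = 0.473). Ccl4 and Ccl19 were the others that were higher, and Ccl2 the other that was lower, on 2 of 3 slides. The large means of Cxcl9, Cxcr3 and Cxcr5 in this genotype came from replicate 2 alone, since replicate 1 and 3 were not above background for any of the 3 genes.

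Setting the 2 genotypes without PPARγ2 against each other, and ob/ob against PPARγ2KO, gave 0 called members each. In POKO vs. PPARγ2KO, where 0% of named genes were called, 12 members were higher and 3 lower at an unadjusted p of 0.05 (5.58% and 7.3% of named genes), and groups did not overlap for 11 and 6 (21.2% and 11.5%, against 8.32% and 15%), with Ccl25 (-0.51, adjusted p = 0.254), Ccl5 (1.57, adjusted p = 0.260) and Cxcl2 (1.13, adjusted p = 0.261) first. In ob/ob vs. PPARγ2KO, where 0.00578% of named genes were called lower and 0% higher, 7 were higher and 4 lower (10.9% and 14.2%), and groups did not overlap for 4 and 3 (7.69% and 5.77%, against 9.42% and 15.7%), with Ccl28 first (1.43, adjusted p = 0.0909). Without PPARγ2KO replicate 2, 5 members were called in the former (among them Ccl6, Cxcl9, Cxcr3 and Cxcr6) and 4 in the latter (Ccl6, Cxcl9, Cxcr3 and Cxcr6). In the latter, Ccl28 alone was called without PPARγ2KO replicate 3, and Cxcl12 and Cxcl17 were called lower without ob/ob replicate 1. Here too the share of named genes called without an array was not computed.

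Whether the loss of PPARγ2 acted differently in obese and lean islets was tested by the interaction, which subtracts the difference PPARγ2KO vs. WT from the difference POKO vs. ob/ob. No member and 0% of named genes were called. At an unadjusted p of 0.05, 5 of the 52 members were above 0 and 5 below, shares near those of all named genes (8.67% and 7.41%). Those above 0 were Cxcl2 (1.92, adjusted p = 0.224), Ccl2 (1.31, adjusted p = 0.224), Ccl7 (1.19, on 2 WT arrays), Cxcl5 (1.18) and Cxcl16 (0.98). Those below 0 were Ccl25 (-0.67, adjusted p = 0.262), Ccl28 (-1.5), Cxcr4 (-1.11), Ccl27a (-1.91) and Ccl19 (-3.23). Ccl2 and Cxcl2 were lower in PPARγ2KO than in WT and higher in POKO than in ob/ob, and neither interaction passed the threshold.

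Genes that act with or around the receptors were read from 3 lists. Of 43 genes that signal below chemokine receptors 16 were called higher and 0 lower in ob/ob vs. WT, beside 4.51% and 2.17% of named genes, with a median log2 fold change of 0.28. Among the smallest adjusted p values were those of Gng2, a G protein subunit (1.76, adjusted p = 0.0125), the kinase gene Lyn (1.04, adjusted p = 0.0125), Elmo1, which helps to activate Rac (1.87, adjusted p = 0.0140) and Vav1, an exchange factor of blood cells (1.77, adjusted p = 0.0187). In POKO vs. WT 0 of these 43 were called, with 17 higher and 2 lower at an unadjusted p of 0.05. Of 12 cytokines that induce chemokines 3 were called higher: Ltb, a lymphocyte cytokine that organises lymphoid tissue (3.53, adjusted p = 0.0126), Lta (1.78, adjusted p = 0.0325) and Ifnb1 (1.73, adjusted p = 0.0244), the last of these above background on only 1 of the 12 arrays. Ifng (1.62, adjusted p = 0.0684) and Tnf (-0.06, adjusted p = 0.895) were not called. Of 8 atypical receptors and platelet chemokines 1 was called higher, Ackr2, a receptor that takes up CC chemokines without G protein signalling (1.84, adjusted p = 0.0239). Several of these genes are expressed mainly by blood cells, and the lymphocyte markers given above moved the same way.

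Neighbouring genes on the chromosome were also set side by side, since most chemokine genes lie in clusters. In the cluster of Ccl5, Ccl9, Ccl6, Ccl3 and Ccl4, 5 of 5 genes had a log2 fold change above 0 in ob/ob vs. WT and 2 were called. In the cluster of Cxcl5, Cxcl3, Cxcl15, Cxcl1 and Cxcl2, Cxcl15 was at background on every array, and the other 4 were below 0 in ob/ob vs. WT (43.9% of named genes were above 0) and above 0 in POKO vs. ob/ob (52.5% were above 0). Both comparisons use the ob/ob arrays, so low ob/ob values alone give both signs. Cxcl9 and Cxcl10, which lie next to each other, were both called. The 6 genes of the cluster with Ccl2 and Ccl7 were split, with 3 above 0. Genes of a cluster are of similar sequence and are not independent.

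The other members gave no difference that could be told from the spread. Ccl1, never above background, had the only other adjusted p under the threshold in ob/ob vs. WT (-0.46, adjusted p = 0.0464), so its value is not a measured level. Cxcl14 was 9.21 to 9.45 in WT and 9.74 to 10.87 in POKO, where replicate 2 was highest. Ccl17 was above background on every array with a range of 4.31 to 5.79, and its receptor Ccr4 with a range of 4.16 to 7.38. A second Ccr4 probe was not above background on any array. Ccl22, the other CCR4 ligand, was above background on 1 array, ob/ob replicate 1. Ccl8 and Ccl12 were highest on PPARγ2KO replicate 2 (7.14 and 7.04), with Ccl8 nearly as high on POKO replicate 2 (7.10). Ccl24 and Cxcl17 were above background on 3 arrays each. Cxcl3 was 5.65 to 7.75 over the 12 arrays with no order of genotypes.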

How the data were processed

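Islet RNA of 4 genotypes was hybridised to 12 Agilent arrays in 1 colour, 3 per genotype. The deposited scanner files hold intensity per spot, which Agilent Feature Extraction 10.1.1.1 had background-subtracted (the processed signal), together with flags for spots well above background. The authors also deposited log2 values after quantile normalization, which were used as an alternative. Signal over background, and the number of arrays, limit the precision.

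Processed signals of the 43379 non-control spots were quantile normalized and log2 transformed. Of these spot values 919 flagged as outliers were left out, 0 were saturated, and spots of a probe were averaged, giving 41174 probes. Of these, 25097 were named through RefSeq accessions (17305 genes) and 16077 were not named. A linear model with genotype as its only term was fitted to all 12 arrays with limma 3.58.1 in R 4.3.3, with Benjamini-Hochberg adjustment over all probes, and 6 comparisons and an interaction were tested. The fit was tested on simulated data. Where every array of a group missed that flag, the fold is a lower limit, from the lowest signal well above background on those arrays. Such a limit holds for the main processing only. Arrays with the same replicate number shared a slide.

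Array values are given for members called in any comparison, or with an unadjusted p of at most 0.05 and measured above background throughout the group with the higher signal. Other lists name up to 5 genes by adjusted p, and further marker and cytokine genes were named after their values were seen. Some genes are counted but not reported by name here. The members and all lists were chosen with earlier results of these data known. Alternatives were another background correction, 2 other normalizations, a filter on dim probes, outlier spots kept, the replicate number as a block, a fit of 2 groups at a time, array weights, the authors' values, other criteria, the mean of probes, and each array left out. Normexp used median spot signals, since mean signals were not used here.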

Additional observations from a re-analysis of the deposited data

How the results depend on the processing

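In ob/ob vs. WT the 9 calls became 1 (Ccl5) with normexp background correction, 3 with a fit on the groups compared (of which Cxcl9 and Cxcr3 were among the 9), and 16 with array weights (13 higher and 3 lower, with 8 of the 9 kept). Leaving out 1 array gave 0 to 14 calls. In POKO vs. WT the 0 calls became 3 with the 75th percentile, 6 with the filter on dim probes, 6 with a fit on the groups compared, 12 with array weights and 0 to 8 with 1 array left out. In ob/ob vs. PPARγ2KO they became 1 with the filter, 4 with array weights and 0 to 4 with 1 array left out. In POKO vs. ob/ob they became 4 with array weights, and in POKO vs. PPARγ2KO 0 to 5 with 1 array left out. PPARγ2KO vs. WT and the interaction had 0 calls under every alternative run. The share of named genes called under each alternative was not computed, so a rise or fall of these counts is not particular to the members. The causes were not tested. Over 22 alternatives in ob/ob vs. WT, the call was kept in 18 for Ccl28, 17 for Ccl5 and Cxcr3, 16 for Ccl4 and Cxcr4, 12 for Ccr6, 11 for Cxcl9, 10 for Ccr7 and 7 for Cxcl10. No log2 fold change of a called gene changed sign, but several became small. The lowest was 0.26 for Cxcr3, 0.33 for Ccl4, 0.38 for Ccl28 and 0.52 for Cxcr4. It was 0.72 for Ccr6 and Cxcl9, 0.85 for Cxcl10, 1.66 for Ccr7 and 2.08 for Ccl5.

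Deviations of same-numbered arrays were at most weakly correlated (-0.13 to 0.18 over 18 pairs, median 0.03, 4 of them over 0.1). Over 36 pairs of differently numbered arrays the median was -0.04, with 3 over 0.1. The same-numbered arrays share a slide but were not treated as pairs in the main fit. With the replicate block 6 members were called in ob/ob vs. WT (Cxcl9, Cxcl10 and Ccr7 were lost) and 0 in each other comparison. Members that were dim on the WT arrays, such as Cxcl9 and Cxcr3, have folds limited by the background.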
